A study of Mus musculus with 4 samples.

Results

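The genes described here encode the cargo and membrane of cytotoxic granules: perforin (Prf1), 8 granzymes (Gzma, Gzmb, Gzmc, Gzmd, Gzme, Gzmf, Gzmg and Gzmk) and the granule membrane protein NKG7 (Nkg7). These 10 genes were picked by symbol, and all 10 had a row among the 24421 gene rows of each count table. RNA was sequenced from J558 allografts, tumours grown under the skin of the right flank of female BALB/c mice of 4 weeks of age from the J558 mouse plasmacytoma line. Mice were given 0.5% methylcellulose as vehicle (libraries Vehicle-1 and Vehicle-2) or TAK-931, an inhibitor of the replication kinase CDC7, at 60 mg/kg by mouth once daily (libraries TAK-931-1 and TAK-931-2), and tumours were taken on day 6 (n = 2 per group). No engineered allele was named for mice or cells. All 4 tumours came from 1 cell line, and each RNA sample was a whole tumour in which J558 cells and host cells were mixed. Gzmb and Gzmk were among the marker genes that the study itself followed.

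Cytotoxic granules are secretory lysosomes of CD8+ T cells and natural killer (NK) cells. On contact with a target cell they release perforin, which forms pores in the target membrane, and granzymes, serine proteases that enter through these pores and cut proteins of the target. Granzyme B cuts after aspartate and starts apoptosis through caspases and BID, granzyme A is a tryptase that acts on the SET complex, and NKG7 sits in the granule membrane and takes part in granule release. Gzma and Gzmk lie together on chromosome 13, whereas Gzmb to Gzmg stand in a row on chromosome 14, the outcome of gene duplication in rodents.

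Because the chromosome 14 granzymes are close copies of one another, a stretch of one exon is shown first, to make visible how few bases separate the reads of these genes. The lines give 90 bases of the coding strand of a 261-base coding exon that Gzmb to Gzmg share in length (GENCODE vM21, GRCm38, the assembly also called mm10), 5′ to 3′, with capitals at bases that differ from Gzmd.
Gzmd (chr14:56130371-56130460, minus strand): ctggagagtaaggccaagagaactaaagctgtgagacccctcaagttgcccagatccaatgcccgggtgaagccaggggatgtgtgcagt
Gzme (chr14:56118422-56118511, minus strand): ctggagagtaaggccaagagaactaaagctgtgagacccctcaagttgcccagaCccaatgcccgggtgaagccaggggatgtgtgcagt
Gzmg (chr14:56157378-56157467, minus strand): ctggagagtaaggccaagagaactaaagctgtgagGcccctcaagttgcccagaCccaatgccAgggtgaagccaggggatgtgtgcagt
Gzmf (chr14:56206088-56206177, minus strand): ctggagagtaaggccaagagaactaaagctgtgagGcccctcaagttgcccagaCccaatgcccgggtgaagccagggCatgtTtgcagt
Gzmc (chr14:56232410-56232499, minus strand): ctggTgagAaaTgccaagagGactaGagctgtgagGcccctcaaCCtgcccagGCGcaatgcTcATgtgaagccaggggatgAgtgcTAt
Gzmb (chr14:56260353-56260442, minus strand): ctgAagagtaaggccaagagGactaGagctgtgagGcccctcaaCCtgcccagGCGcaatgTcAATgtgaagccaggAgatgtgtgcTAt
In this stretch Gzme differed from Gzmd at 1 base, Gzmg at 3, Gzmf at 4, Gzmb at 16 and Gzmc at 17. Over the whole coding sequence, aligned Gzmd and Gzme were 93.5% identical, Gzmd and Gzmg 87.0%, Gzmd and Gzmf 83.8%, and Gzmb and Gzmc 76.7%. Of all 50-base windows of the transcript, 78.1% were found in no other gene's transcript for Gzmd, 79.3% for Gzme, 80.6% for Gzmf, 80.2% for Gzmg and 95.9% for Gzmc, and 100% for Prf1, Gzma, Gzmb, Gzmk and Nkg7. At 100 bases the shares were between 93.3% (Gzmf, which shared windows with Gm4022, a gene absent from the count tables) and 100%. The alignment kept uniquely placed reads according to the table headers, and the read length was not given in the sources used here, so the levels of Gzmd, Gzme, Gzmf and Gzmg may miss or exchange a part of their reads. No exon of the 10 genes overlapped an exon of another row on either strand.

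The upstream sequences of the same genes were set side by side because all 10 genes were higher in the same tumours. Each line gives 200 bases before the start site of RefSeq (GRCm38.p6), 5′ to 3′ on the gene's strand, for perforin, the most abundant granzymes and the chromosome 14 copies. Capitals mark matches on either strand to RUNX (TGTGGTT or TGTGGTC), ETS (CAGGAAGT or CCGGAAGT) and AP-1 (TGAGTCA or TGACTCA) letters, and 8 bases that follow AAGTAATG in Gzmc to Gzmg. The ETS match of Gzme begins 1 base before the line, and those of Gzmf and Gzmg lie wholly before it.
Prf1 (chr10:61297636-61297835, plus strand): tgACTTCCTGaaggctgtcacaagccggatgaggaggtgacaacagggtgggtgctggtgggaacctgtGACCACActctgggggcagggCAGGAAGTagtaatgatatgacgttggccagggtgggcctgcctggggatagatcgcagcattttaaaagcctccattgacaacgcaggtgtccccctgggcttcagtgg
Gzma (chr13:113100982-113101181, minus strand): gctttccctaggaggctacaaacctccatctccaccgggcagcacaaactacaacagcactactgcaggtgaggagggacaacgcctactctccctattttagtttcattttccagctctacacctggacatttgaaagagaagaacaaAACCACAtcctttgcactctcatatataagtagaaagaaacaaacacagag
Gzmb (chr14:56262335-56262534, minus strand): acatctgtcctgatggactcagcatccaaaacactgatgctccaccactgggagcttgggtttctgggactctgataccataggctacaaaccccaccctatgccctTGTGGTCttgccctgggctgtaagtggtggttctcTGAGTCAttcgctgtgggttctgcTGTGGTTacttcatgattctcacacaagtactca
Gzmc (chr14:56234658-56234857, minus strand): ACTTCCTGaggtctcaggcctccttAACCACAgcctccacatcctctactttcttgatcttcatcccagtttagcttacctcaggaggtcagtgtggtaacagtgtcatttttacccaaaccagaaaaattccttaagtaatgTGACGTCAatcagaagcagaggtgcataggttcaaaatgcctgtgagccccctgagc
Gzmd (chr14:56132594-56132793, minus strand): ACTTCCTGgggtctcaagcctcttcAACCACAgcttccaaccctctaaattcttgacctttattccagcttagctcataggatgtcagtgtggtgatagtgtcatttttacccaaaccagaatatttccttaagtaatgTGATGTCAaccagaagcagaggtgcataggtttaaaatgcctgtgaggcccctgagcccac
Gzme (chr14:56120626-56120825, minus strand): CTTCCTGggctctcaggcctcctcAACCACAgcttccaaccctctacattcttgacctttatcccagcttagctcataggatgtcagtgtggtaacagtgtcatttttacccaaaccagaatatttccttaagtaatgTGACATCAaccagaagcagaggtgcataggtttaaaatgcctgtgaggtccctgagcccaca
Gzmf (chr14:56211408-56211607, minus strand): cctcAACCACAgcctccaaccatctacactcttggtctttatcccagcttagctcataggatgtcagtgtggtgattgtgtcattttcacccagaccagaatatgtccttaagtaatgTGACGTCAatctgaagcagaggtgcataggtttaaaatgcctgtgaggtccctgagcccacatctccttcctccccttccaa
Gzmg (chr14:56159580-56159779, minus strand): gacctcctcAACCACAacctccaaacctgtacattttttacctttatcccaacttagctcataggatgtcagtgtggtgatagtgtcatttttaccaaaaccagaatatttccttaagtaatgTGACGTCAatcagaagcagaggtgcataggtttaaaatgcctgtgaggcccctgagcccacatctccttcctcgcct
RUNX letters were found within 250 bases upstream in 8 of the 10 genes, against 7.67% of 32817 RefSeq promoters, and ETS letters in 6 of 10, against 5.49%. The copies are not independent, since Gzmc to Gzmg carry these letters at the same aligned place. The 8 bases read TGACGTCA, the cyclic AMP response element (CRE), in Gzmc, Gzmf and Gzmg, while Gzmd carried C4T and Gzme G5A, counted from 1 at the 5′ end of the element with the CRE base first. CRE letters stood in 1.55% of all promoters. AP-1 letters were found in Gzmb alone (4.46% of all promoters), and T-box half-site letters (AGGTGTG, 5.10% of all promoters) and GAS letters (TTCNNNGAA, 7.02%) in Nkg7 alone. The RefSeq start site equalled that of the count tables for 7 of the 10 genes and differed for Gzmb, Gzmc and Gzmk. No match overlapped another. A match describes letters only, and factor binding was not measured.

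Library depth was between 16487902 and 19589339 counts. Levels are given as CPM, counts scaled by TMM to a common library total, and where a pair of values stands for a group, library 1 comes first. A count of 0 in a library allows up to 3 counts, or 0.158 to 0.180 CPM. Small counts were mostly even, as when both mates of a read pair are counted, so intervals and limits below, which cover counting error only, are too narrow. The TAK-931-1 tumour stood apart: its summed J558 and plasma cell markers (8 genes, among them Jchain, Sdc1 and Irf4, all detected in every library) were 4761 CPM against 9711 and 10302 in vehicle and 13605 in the other treated tumour, its 8 macrophage markers 8960 CPM against 613 and 516 in vehicle and 1603 in the other treated tumour, and its 8 skeletal muscle markers 645 CPM against 92.5 and 97.7 in vehicle and 20.3 in the other treated tumour. The variation between the TAK-931 libraries (biological coefficient of variation 0.579) was larger than between the vehicle libraries (0.132). Fits are therefore also given without TAK-931-1, except for Gzmf and Gzmk, which then fell under the count filter. In whole-tumour RNA, more cells of a type and more RNA per cell cannot be told apart.

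To ask how the cytotoxic granule genes differed with treatment, perforin and NKG7 were examined first. Prf1 (chromosome 10, 61297836 to 61304263, 2054 exon bases) was at 6.40 and 0.719 CPM in the vehicle tumours and at 180.2 and 24.5 CPM in the treated tumours. Both treated tumours lay above both vehicle tumours, and the treated tumours were 7.36-fold apart. The fitted log2 fold change was 4.84 (SE 1.53, n = 2 per group), and it was 2.77 (SE 1.64) without TAK-931-1. Nkg7 (chromosome 7, 43437138 to 43438246) had 4.86 and 1.44 CPM in vehicle against 206 and 14.1 CPM in treated tumours. Again the groups did not overlap, and the first treated tumour was 14.6-fold above the second. A log2 fold change of 5.13 (SE 1.57) was fitted, or 2.16 (SE 0.62) without TAK-931-1.

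Among the chromosome 13 granzymes, Gzma differed least of the 10 genes on the fitted scale and Gzmk was found almost solely in 1 tumour. Gzma (chromosome 13, 113093827 to 113100981) was at 12.4 and 6.89 CPM in vehicle tumours against 113 and 37.2 CPM in treated ones. It was the most abundant granzyme in both vehicle tumours, and the groups did not overlap. Its log2 fold change was 2.96 (SE 0.69), and 1.94 (SE 0.31) without TAK-931-1. Gzmk (chromosome 13, 113171874 to 113180897), a tryptase like granzyme A, had 2 and 0 counts in vehicle tumours against 842 and 10 in treated ones. TAK-931-1 was 743 times the pooled vehicle rate (95% exact counting interval 205 to 6146), while TAK-931-2 was 9.78 times (2.09 to 91.8), so nearly all of its reads came from 1 tumour. The fitted log2 fold change of Gzmk was 8.40 (SE 2.72), and without TAK-931-1 the gene fell under the count filter.

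Gzmb and the 5 copies beside it were higher in both treated tumours as well, with the copies starting from almost nothing in vehicle. Gzmb (chromosome 14, 56258858 to 56262260) was at 7.47 and 1.68 CPM in vehicle tumours and at 329 and 29.7 CPM in treated ones, with a log2 fold change of 5.29 (SE 1.54), or 2.69 (SE 1.13) without TAK-931-1. The treated tumours were 72.0-fold and 6.49-fold above the vehicle mean of 4.57 ± 4.09 CPM (SD, n = 2). Gzmc (56231401 to 56234656) had 20 and 2 counts in vehicle against 1276 and 134 with treatment, and its log2 fold change of 5.83 (SE 1.61) was 3.56 (SE 0.88) without TAK-931-1. Gzmd (56129568 to 56132593) had 6 and 0 counts in vehicle against 1644 and 84 with TAK-931. Gzme (56117619 to 56120625) had 8 and 2 counts against 1093 and 54. Their log2 fold changes were 7.95 (SE 2.10) for Gzmd and 6.64 (SE 1.82) for Gzme, and without TAK-931-1 they were 4.72 (SE 1.05) and 3.37 (SE 0.97).

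The last copies, Gzmf and Gzmg, were the rarest of Gzmb to Gzmg in vehicle and in TAK-931-1, although Gzmd was at 0 counts in Vehicle-2 as well. Gzmf (56205263 to 56211407) had 0 counts in both vehicle libraries and 594 and 12 in the treated ones. Against a limit of 3 counts in each vehicle library, it was at least 175-fold higher in the first treated tumour and at least 3.91-fold higher in the second, and these bounds are too high if both mates of a pair were counted. Gzmg (56156581 to 56159579) had 2 and 0 counts in vehicle and 254 and 72 with treatment, with a log2 fold change of 7.04 (SE 1.37), or 5.97 (SE 1.11) without TAK-931-1. The TAK-931-1 to TAK-931-2 ratio of Gzmg, 3.18, was close to that of Gzma, 3.05, and below those of its neighbours, which ran from 8.59 (Gzmc) to 44.6 (Gzmf).

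**Figure D1:**
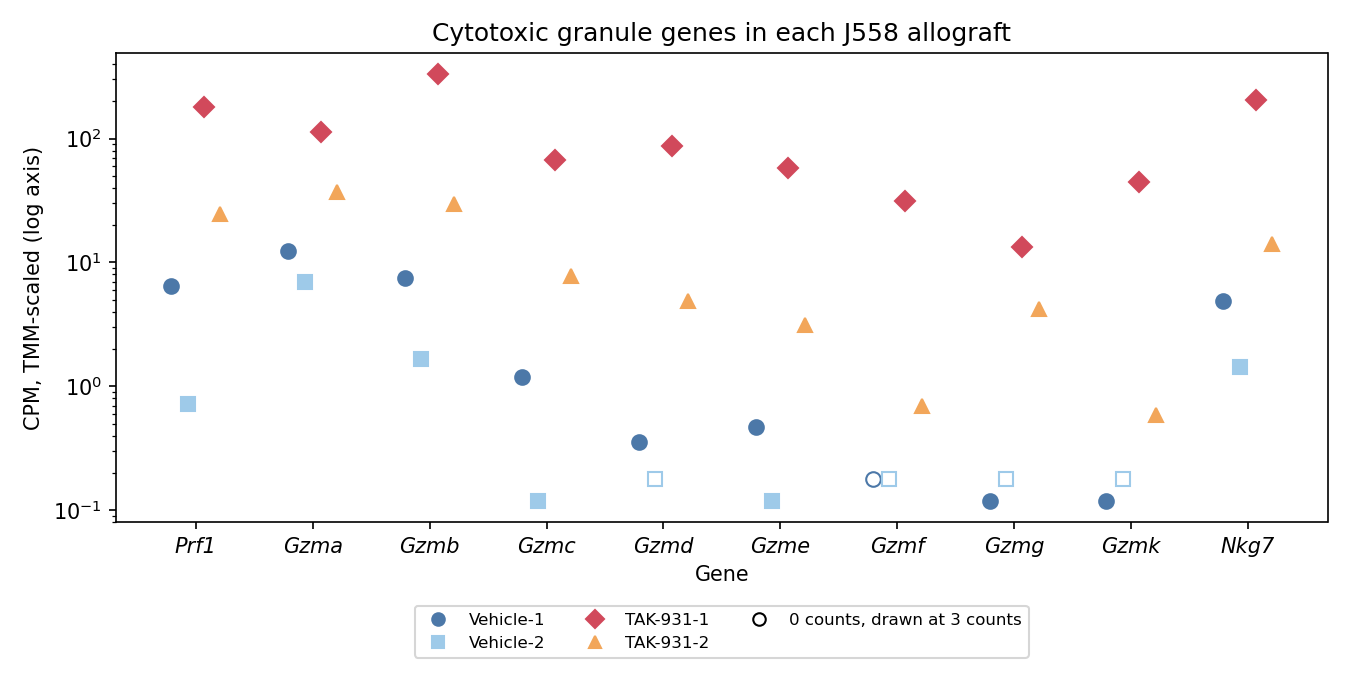
CPM (log axis) of the 10 cytotoxic granule genes in each of the 4 allografts, 1 point per library; open symbols are libraries with 0 counts, drawn at the level of 3 counts. TAK-931-1 is the highest library and TAK-931-2 the second highest for each gene, from 13.4 CPM (Gzmg) to 329 CPM (Gzmb) in TAK-931-1.

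All 10 genes passed the filter on low counts, 6 of them (Gzmc, Gzmd, Gzme, Gzmf, Gzmg and Gzmk) only with the help of the treated libraries, which favours genes that differ. By edgeR's quasi-likelihood test with Benjamini-Hochberg adjustment over the 13669 genes tested, 0 of the 10 passed an adjusted p of 0.05 (background 0% of genes), and all 10 had the same adjusted p of 0.275. At an unadjusted p under 0.05, all 10 were called higher, where 11.6% of all genes tested were. DESeq2 called 9 of the 10 higher at its adjusted p under 0.05, where it called 7.3% of 17621 genes higher and 1412 genes in all. limma-voom called 0, with 2 of the 10 (Gzma and Gzmg) higher at an unadjusted p under 0.05, against 6.04% of all genes. Both treated libraries lay above both vehicle libraries for all 10 genes, against 29.9% of the genes tested. TAK-931-2 by itself lay above both vehicle libraries for all 10, against 42.3%. The order TAK-931-1, TAK-931-2, Vehicle-1, Vehicle-2 from high to low held for 9 genes, against 12.7%, and Gzmf was tied at 0 in vehicle.

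Treated tumours differed from each other in size rather than in direction. TAK-931-1 was at least 4 times TAK-931-2 in CPM for 8 of the 10 genes, against 11.1% of all genes tested, the exceptions being Gzma and Gzmg. Summed over the 10 genes, CPM was 33.4 and 11.0 in vehicle and 1129 and 127 in treated tumours. The vehicle mean was 22.2 ± 15.9 CPM and the TAK-931 mean 628 ± 709 CPM (SD, n = 2), and the treated sums were 50.9-fold and 5.71-fold above the mean of vehicle. An exact two-sided permutation test over the 4 libraries gave p = 0.33, the smallest that 2 against 2 allows. Together the 10 genes took 0.11% and 0.013% of all gene counts in the treated libraries and 0.0033% and 0.0011% in the vehicle libraries. Without TAK-931-1, 5 of the 10 (Gzma, Gzmc, Gzmd, Gzme and Gzmg) passed an adjusted p of 0.05 by edgeR, in a fit that called 3996 genes, 12.6% of those tested as higher, and that took the lone treated library to vary like the vehicle pair. Without TAK-931-2, 9 of the 10 passed (all but Prf1) in a fit that called 8424 genes, 28.2% of those tested as higher, and without either vehicle library 0 did.

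**Figure D2:**
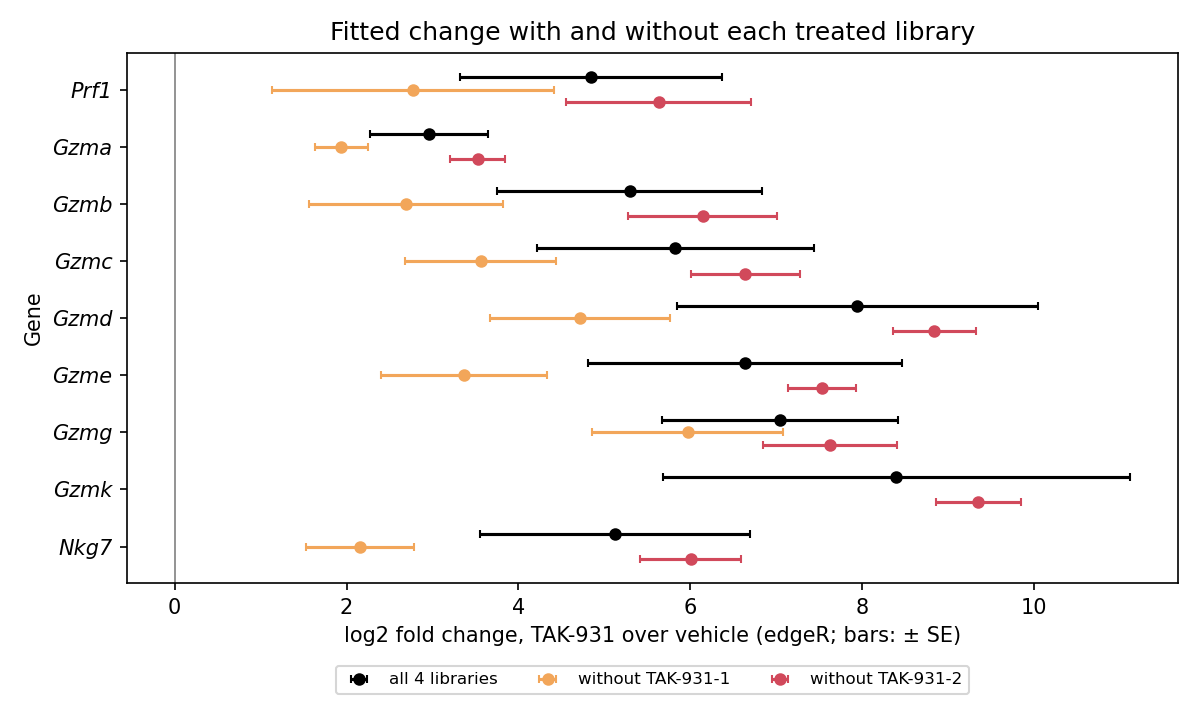
Fitted log2 fold change of TAK-931 over vehicle (points) with SE (bars) for 9 genes, from all 4 libraries and with each treated library left out; Gzmf, at 0 in vehicle, is not drawn, and Gzmk could not be fitted without TAK-931-1. Each point lies to the right of 0, and leaving out TAK-931-1 lowers Nkg7 from 5.13 to 2.16 and Gzmg only from 7.04 to 5.97.

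Levels between genes were compared per kilobase of exon, as CPM per kb. In vehicle the order began with Gzma (14.2 and 7.85 CPM per kb), Nkg7 (5.98 and 1.77), Gzmb (5.27 and 1.18) and Prf1 (3.12 and 0.35). In TAK-931-1 it began with Nkg7 (253), Gzmb (233), Gzma (129) and Gzmd (92.3), and in TAK-931-2 with Gzma (42.4), Gzmb (21.0), Nkg7 (17.4) and Prf1 (11.9). In vehicle Gzma stood above Nkg7 without overlap, whereas the other neighbours in these orders, in either group, lay within the spread between its libraries. Among all genes tested, 2.22% stood above Nkg7 and 2.41% above Gzmb per length in TAK-931-1, whereas in TAK-931-2 32.2% stood above Nkg7 and 27.7% above Gzmb.

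The make-up of the granzyme counts differed between the groups along with their sum. Gzma took 56.1% (95% Wilson interval 51.1 to 61.1) of the 374 granzyme counts of Vehicle-1 and 78.2% (70.9 to 84.1) of the 147 of Vehicle-2, against 15.3% (14.7 to 15.9) of the 14121 of TAK-931-1 and, in TAK-931-2, 42.2% (39.7 to 44.7) of 1513. The share of Gzma was thus lower in both treated tumours than in either vehicle tumour. Gzmc to Gzmg together took 9.63% (7.03 to 13.04) and 2.72% (1.06 to 6.79) in vehicle against 34.4% (33.6 to 35.2) and 23.5% (21.5 to 25.7) with treatment, with no overlap of intervals between groups. Gzmb by itself did not separate the groups in its share of counts, with 33.7% and 19.0% in vehicle against 44.4% and 33.6% with TAK-931. Per exon length, Gzmc to Gzmg were at 10.5% and 2.78% in vehicle against 39.7% and 25.9% with TAK-931. Gzmb, on that scale, was at 24.1% and 12.8% in vehicle against 33.6% and 24.2%, with the second treated library just above the first vehicle library. Within the copies, Gzmd was ahead of Gzmc in TAK-931-1 (11.6% against 9.04% of granzyme counts) and behind it in TAK-931-2 (5.55% against 8.86%). These shares are a description and were not tested between groups.

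**Figure D3:**
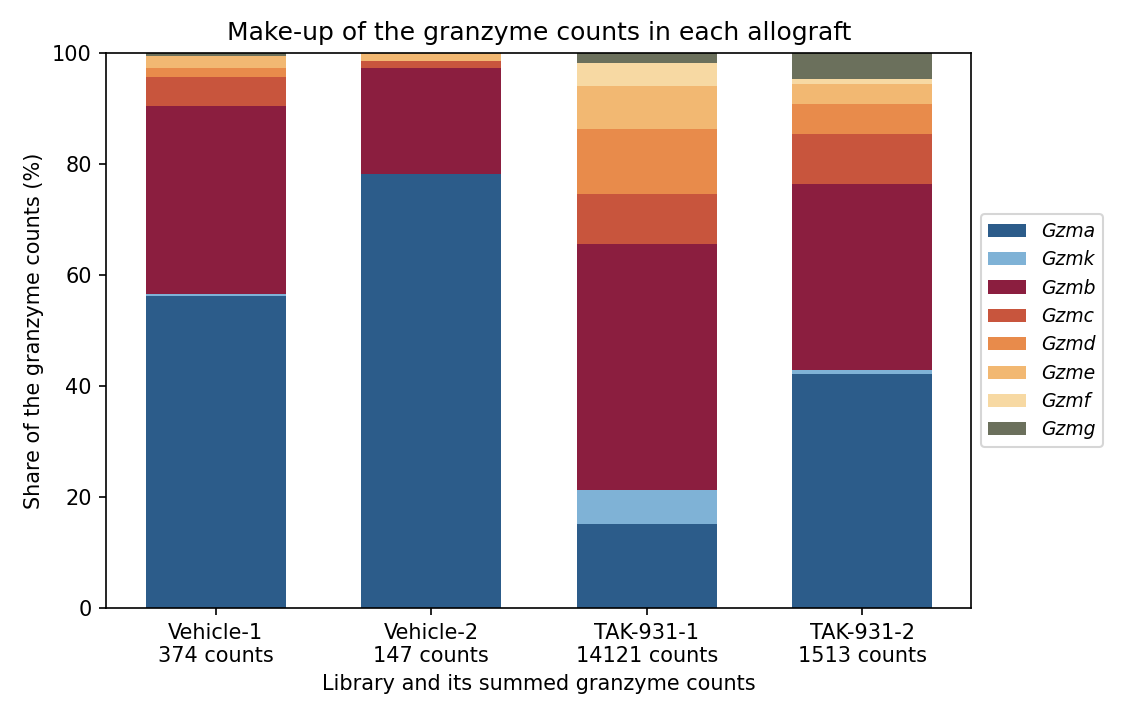
Stacked bars, from 0 to 100%, of the share of each granzyme in the summed counts of the 8 granzymes, 1 bar per library with its count total below. The Gzma segment takes 56.1% and 78.2% in vehicle against 15.3% and 42.2% with TAK-931, where the segments of Gzmc to Gzmg together are wider.

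Other granzymes and other proteases of the chromosome 14 region were at low levels. Gzmm, the granzyme on chromosome 10 that is known from NK cells, was at 1.72 and 2.64 CPM in vehicle and 1.16 and 2.33 CPM with TAK-931, a log2 fold change of −0.32 (SE 0.70). Gzmn, which stands between Gzmg and Gzmf, had 1 count in TAK-931-1 and 0 elsewhere. From Gzme to Gzmb the row spans 144642 bases. On its Gzme side lie mast cell proteases and cathepsin G (8 genes), of which 1, Cma1, was abundant enough to be tested, at 0.711 and 0.839 CPM in vehicle against 5.68 and 0.875 with TAK-931 (log2 fold change 2.07, SE 1.09). Mcpt4 had 10 and 2 counts in vehicle against 160 and 0 with TAK-931, so TAK-931-2 lay below both vehicle tumours. Ctsg had 0 and 0 counts in vehicle against 8 and 0. Summed over these 8 neighbours, CPM was 1.30 and 1.44 in vehicle against 15.5 and 2.04 with TAK-931.

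**Figure D4:**
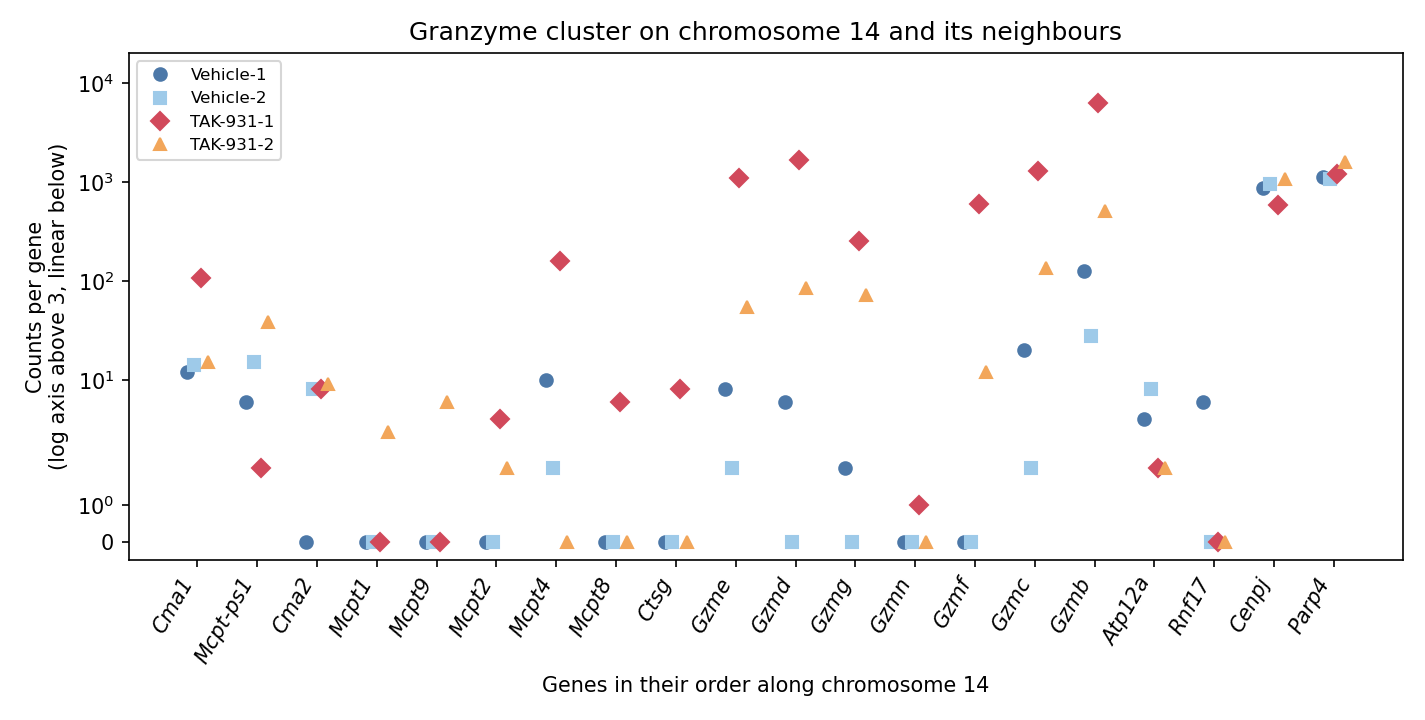
Counts per gene (log axis above 3, linear below) in the 4 libraries for genes in their order along chromosome 14, from the mast cell proteases through the granzyme row to Parp4. The 6 genes Gzme, Gzmd, Gzmg, Gzmf, Gzmc and Gzmb stand higher in both treated libraries than in vehicle, while Gzmn between them had at most 1 count and Cenpj and Parp4 beyond them lie close together in all 4 libraries.

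Genes that load, activate and release the granule were read next. Of 15 tested genes of granule processing and exocytosis, 7 were higher and 0 lower at an unadjusted p under 0.05 (background 11.6% higher and 6.55% lower), 0 at an adjusted p, with a median log2 fold change of 1.31 against 0.02 over all genes. Srgn, the proteoglycan that packs granzymes, was at 15.7 and 10.4 CPM in vehicle against 229 and 48.9 with TAK-931. Ctsc, the dipeptidase that activates progranzymes, was at 83.3 and 41.0 CPM in vehicle against 834 and 193 with TAK-931. Cst7 (cystatin F, an inhibitor of that dipeptidase) went with the largest difference of the list, 1.42 and 0.539 CPM in vehicle against 45.2 and 5.66 with TAK-931 (log2 fold change 4.69, SE 1.29). Srgn and Ctsc had log2 fold changes of 3.41 (SE 0.86) and 3.05 (SE 0.87). These genes are also expressed by myeloid cells. Of the macrophage markers given above, 8 of 8 were higher in both treated libraries (background 29.9%). Their part in these values was not tested.

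Serpins, the family to which intracellular inhibitors of granzymes belong, were mostly higher in the same tumours. Of 6 serpins tested, 4 were higher at an unadjusted p under 0.05 (background 11.6%), 0 at an adjusted p, and 5 of 6 were higher without overlap between groups (background 29.9%). Serpinb9, the inhibitor of granzyme B, was at 10.8 and 7.43 CPM in vehicle against 106 and 15.3 with TAK-931, with a log2 fold change of 2.74 (SE 1.00). Serpinb9b was at 1.07 and 0.24 CPM in vehicle against 45.0 and 1.52 with TAK-931 (log2 fold change 5.14, SE 1.90), so that TAK-931-2 lay close to Vehicle-1. Serpinb6b was at 3.20 and 1.08 CPM against 65.8 and 8.92 (4.12, SE 1.23). Serpina3g, which differed between the vehicle tumours, was at 102 and 11.4 CPM against 618 and 195 (2.84, SE 1.23). Other effectors of killing followed, with 4 of 4 tested higher at an unadjusted p under 0.05 (background 11.6%) and 0 at an adjusted p, although 2 of these (Fasl and Ifng) passed the filter only with the treated libraries. Fasl, the death ligand, had 0 and 8 counts in vehicle against 362 and 60 with TAK-931. Ifng (interferon gamma) had 32 and 2 counts against 516 and 112, and Tnfsf10 (TRAIL) 74 and 64 against 1760 and 317.

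Proteins that granzymes cut, listed here together with partners in the SET complex, are made by cells of many kinds. Their genes were called about as often as other genes. Of 12 genes tested in this joint list, 1 was higher and 1 lower at an unadjusted p under 0.05 (background 11.6% and 6.55%). At an adjusted p there were 0, and the median log2 fold change was −0.37. Both called genes stand for partners in the SET complex rather than for cut proteins. Both treated libraries lay below both vehicle libraries in 6 of the 12, against 32.8% of all genes tested. Trex1, a nuclease of the SET complex, was the higher one, at 18.1 and 18.5 CPM in vehicle against 95.3 and 65.7 with TAK-931 (log2 fold change 2.14, SE 0.28). Nme1, named after its value was seen, was the lower one, at 377 and 375 CPM against 158 and 244 (log2 fold change −0.90, SE 0.31). Apex1, of the SET complex as well, was at 105 and 114 CPM against 15.8 and 61.9 (−1.49, SE 0.69).

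Transcription factors known from cytotoxic lymphocytes were mostly higher beside the granule genes. Of 7 tested, 6 were higher and 0 lower at an unadjusted p under 0.05 (background 11.6% and 6.55%), 0 at an adjusted p, with a median log2 fold change of 3.50 and Prdm1 as the exception (−0.12, SE 0.48). Tbx21 (T-bet) had 4 and 2 counts in vehicle against 844 and 83 with TAK-931, and a log2 fold change of 7.05 (SE 1.49). Eomes was at 1.48 and 0.779 CPM in vehicle against 69.4 and 11.0 with TAK-931 (log2 fold change 5.15, SE 1.14), and Id2 was at 12.6 and 6.17 CPM against 202 and 42.1 (3.70, SE 0.93). For Tbx21, Eomes and Id2 the groups did not overlap. Of the lists above, Cst7, Serpinb9b and Tbx21 too passed the filter only with the treated libraries.

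Markers of the cells that could carry the granules were higher in the same tumours. Cd8a, of the CD8 coreceptor, had 29 and 2 counts in vehicle against 5971 and 234 with TAK-931, and the 2 CD8 chains summed to 3.62 and 0.839 CPM in vehicle against 489 and 17.3 with TAK-931. Cd3e, a chain of the T-cell receptor complex, had 32 and 6 counts against 2584 and 132, and 10 of 12 T-cell markers were higher without overlap between groups (background 29.9%), 6 of the 12 having passed the filter only with the treated libraries. The 7 NK-cell markers, all of which passed the filter only with the help of the treated libraries, summed to 7.05 and 1.32 CPM in vehicle against 108 and 26.8 with TAK-931. Most of the TAK-931-1 sum came from Klrc1 alone, at 68.1 CPM there and 5.95 CPM in TAK-931-2. Ncr1, the marker most particular to NK cells, had 46 and 6 counts in vehicle against 214 and 149. Cd4 had 30 and 58 counts against 809 and 132. Log2 fold changes reached 6.36 (SE 2.01) among T-cell markers for Cd3g (44 and 2 counts against 4042 and 221), 5.27 (SE 1.47) among NK-cell markers for Klrc1 (24 and 8 counts against 1294 and 102), and 7.47 (SE 2.13) for Cd8a. Like the other 2, Cd8a passed the filter only with the treated libraries, and 0 of these markers passed an adjusted p of 0.05. Mast cell and basophil markers, which include granule proteases, summed to 3.20 and 3.95 CPM in vehicle against 37.1 and 2.62 with TAK-931, and neutrophil markers to 8.65 and 10.2 CPM in vehicle against 16.8 and 8.22 with TAK-931. Mpo made up most of that last sum outside TAK-931-1 (7.47 and 7.73 CPM in vehicle against 2.95 and 8.10), whereas S100a8 and S100a9 were at 5.26 and 6.57 CPM in TAK-931-1 and at 0 and 0.117 CPM in TAK-931-2, and Elane was at 0 in all 4 libraries.

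Set against these markers, the granule genes did not keep one direction. Per summed CPM of 12 T-cell markers, the 10 genes stood at 0.292 and 0.117 in vehicle and 0.98 and 0.695 with TAK-931, higher in both treated tumours. That list holds Cd28 and Cd6, which were at 37.5 and 38.2 CPM and at 34.0 and 31.9 CPM in the vehicle libraries, where Cd3e was at 1.90 and 0.359 CPM. Per summed CPM of the CD3 chains (Cd3d, Cd3e, Cd3g and Cd247, a set chosen after those levels were seen), the ratio was 4.48 and 5.38 in vehicle against 2.13 and 4.13 with TAK-931, lower in both treated tumours. Per CD8 chain it was 9.25 and 13.1 in vehicle against 2.31 and 7.32 with TAK-931, also lower, and per NK-cell marker 4.74 and 8.32 in vehicle against 10.5 and 4.74 with TAK-931, with the groups overlapping. The ratio of Gzma to the CD3 chains was below both vehicle tumours in both treated ones (1.67 and 3.38 against 0.214 and 1.21), whereas that of Gzmc to Gzmg was above (0.286 and 0.118 against 0.483 and 0.676). Gzmc to Gzmg were also above per T-cell and per NK-cell marker. Per CD8 chain their groups overlapped, at 0.590 and 0.286 in vehicle against 0.522 and 1.20 with TAK-931. The direction relative to lymphocyte markers therefore depended on the marker and on the granzyme, and the vehicle ratios rest on few counts.

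**Figure D5:**
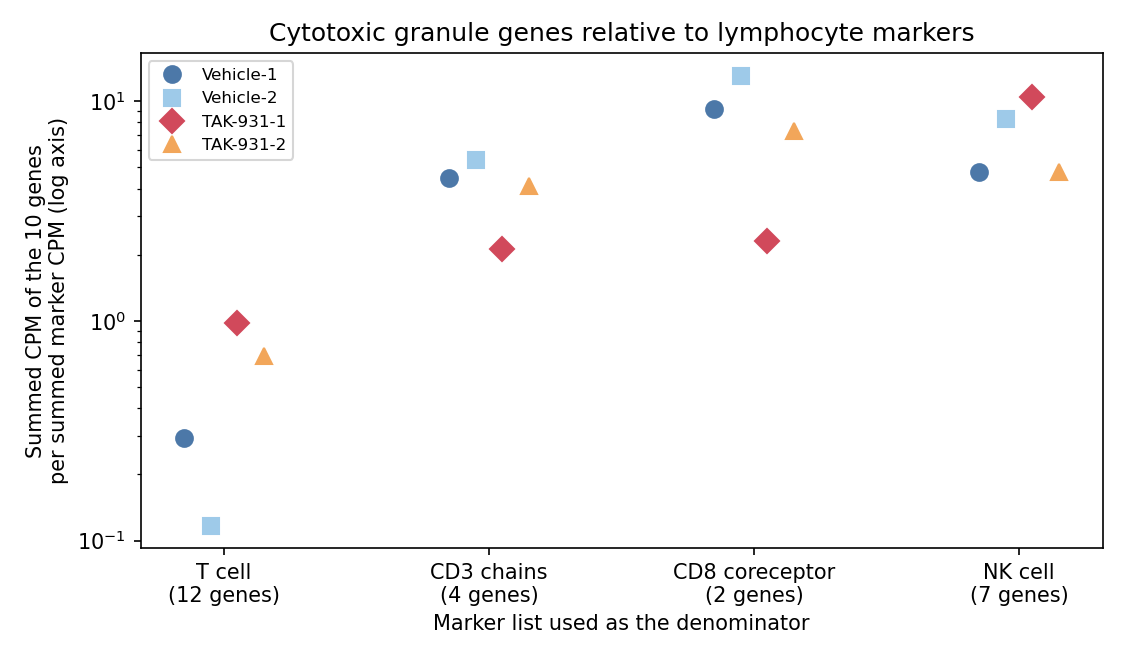
Summed CPM of the 10 cytotoxic granule genes divided by the summed CPM of 4 marker lists (log axis), 1 point per library. The treated libraries lie above vehicle for the T-cell list, at 0.98 and 0.695 against 0.292 and 0.117, below vehicle for the CD3 and CD8 chains, and overlap with them for NK-cell markers.

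The genes whose pattern over the 4 libraries lay closest to those of the granule genes were named by the Euclidean distance between centred log2 CPM profiles (prior count 2) among 12808 tested genes with more than 10 counts in at least 3 libraries, which left out 5 of the 10 genes (Gzmd, Gzme, Gzmf, Gzmg and Gzmk). Nearest to Prf1 were Tnfsf4 (distance 0.33), Zap70 (0.42), Sh2d1a (0.62), Gzmc (0.67) and Il2rb (0.68). Gzmb lay nearest to Lat (0.08), followed by Gm15056, Zap70, Cd247 and Cd27 at up to 0.47. Nkg7 lay nearest to AI504432 (0.26), Bcl11b (0.35), Klrc1 (0.36), Podnl1 (0.37) and Cd247 (0.48). Gzma lay nearest to Ifi44 (0.11), Trim30a (0.12), Cnksr3 (0.13), Clec5a (0.15) and Plac8 (0.17). Among all 10 granule genes, with those 5 put back, Gzmb and Nkg7 were the closest pair (0.61) and Gzma and Gzmd the farthest (4.18). The distances of Gzmd lean on the prior count, as it was near 0 in vehicle. Among the granule genes with enough counts, Gzma and Gzmc were the farthest (3.02). Such distances rest on 4 libraries, of which TAK-931-1 carries the most weight.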

How the data were processed

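Gene counts were deposited by the authors as 1 featureCounts table per library, raw and not normalized, with a second numeric column of another kind, the exon length per gene. Per the submitters' processing notes, STAR 2.6.1c, featureCounts and the mm10 build were used; the library kit, strand setting, read length and annotation were not given in the sources used here. Genes were filtered with filterByExpr (minimum count 10), scaled by TMM and tested by edgeR 4.0.16 (robust quasi-likelihood, two-sided, treatment as the only term, R 4.3.3) with Benjamini-Hochberg adjustment at 0.05 over 13669 genes. SE is the log2 fold change divided by the square root of F. The test was checked on simulated counts. Each library came from its own tumour, and a count of 0 allows 3 counts. The 10 genes, the related lists and the marker lists were chosen with earlier results of these data known. Besides the 10 genes, named were the 3 tested genes of largest log2 fold change in each related list, a fixed set of others (among them Gzmm, Gzmn, Srgn, Ctsc, Serpinb9, Cd8a, Cd3e, Cd4 and Ncr1) and the 5 genes of nearest pattern (1 gene of these is not reported here); of the marker lists, sums and the single largest change of T-cell, CD8 and NK-cell markers are given. Alternatives were DESeq2 1.42.0, limma-voom (limma 3.58.1), library size only, median-of-ratios size factors, no filter, at least 10 counts in every library, halved counts, no robust estimation, a replicate block, each library left out and a prior count of 0.5. Promoter sequences came from RefSeq (GRCm38.p6; all 10 matched) and exons from GENCODE vM21.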

Additional observations from a re-analysis of the deposited data

How the results depend on the processing

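The 10 genes were higher with TAK-931 under each setting in which they could be fitted, and all 10 stayed above vehicle in both treated libraries under each scaling (leaving out a library cannot break that order). The number passing an adjusted p of 0.05 was 0 with library size only, median-of-ratios size factors, both filters, halved counts, limma-voom and no robust estimation. It was 9 of 10 with DESeq2 (1412 genes in all, without Gzmf) and 9 of 10 with a replicate block (144 genes in all, without Gzmg at an adjusted p of 0.0523). The labels name no shared batch, and over all genes tested same-numbered libraries did not deviate together (r = 0.004). Yet 9 of the 10 genes held the order TAK-931-1, TAK-931-2, Vehicle-1, Vehicle-2 (background 12.7%), with library 1 the higher in each group. Leaving out 1 library gave 0 to 9 of the 10 and 0 to 8424 of all genes, 3996 without TAK-931-1 and 8424 without TAK-931-2. At an unadjusted p under 0.05 the number was 4 when at least 10 counts were required in every library (only those 4 genes were left), 2 with limma-voom, and 6 to 10 with a library left out. The counts with a library left out cannot be compared with each other or with the fit of all libraries. Each such fit leaves 1 library in a group, and the share of all genes under that p differed between these fits. Without TAK-931-1, Gzmf and Gzmk were not tested. Log2 fold changes of fitted genes ran from 1.94 (Gzma) to 12.63 (Gzmd, without Vehicle-1, which leaves vehicle at 0) with a library left out. The log2 ratio of the summed CPM was 4.82, between 4.8 and 4.87 under other scalings and between 2.51 and 5.84 with a library left out. A prior count of 0.5 turned 0 of 40 single-library ratios. Apart from these counts, the cause of the differences was not tested. Depth limits Gzmf, Gzmg and Gzmk, with at most 2 counts in vehicle, and the copies share sequence.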
